A study of Mus musculus with 7 samples.

Results

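The genes described here write, erase and read DNA methylation: the methyltransferases Dnmt1, Dnmt3a and Dnmt3b, the dioxygenases Tet1, Tet2 and Tet3, the glycosylase Tdg, and the DNA-binding proteins Uhrf1, Mbd2 and Mbd3. They were chosen by name, with earlier results of these data known. Their chromatin accessibility was followed in every region of the table that overlapped a gene body of GENCODE M21 or the 10 kb on either side, which gave 38 of 55680 regions. A total of 9 of the 10 genes had regions, and Tet1 had none. The regions were measured by ATAC-seq, in which a transposase inserts sequencing adapters into exposed DNA, on nuclei from liver of male C57BL/6N mice. The groups were 3 young samples (3 months) and 4 aged samples (18 months), which differed only in age according to the labels, and no treatment or allele is given for either. The aged samples came from 3 animals, because different lobules of 1 liver were used as separate samples, and the labels do not say which samples these are. The data report how open the DNA was. They measure neither DNA methylation nor the RNA or protein of these genes, and the liver was used whole, so a region can be less open in the same cells or open in fewer cells, which cannot be told apart.

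Methyl groups sit on cytosines that are followed by guanine (CpG). Dnmt3a and Dnmt3b place them on unmethylated DNA, and Dnmt1, guided by Uhrf1 to half-methylated DNA after replication, copies them onto the new strand. The TET enzymes oxidize the methyl group, and Tdg excises the oxidized bases so that base excision repair can restore cytosine. Mbd2 binds methylated CpG, while Mbd3, a relative that largely lacks this binding, takes its place in separate NuRD complexes, which remodel nucleosomes and remove acetyl groups from histones. Promoters of widely used genes often lie in CpG islands, stretches dense in CpG that are usually kept unmethylated. A shorter Dnmt3a protein, known as Dnmt3a2, is made from a promoter inside the gene.

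Counts in regions summed to between 5709327 and 25461110 in the young and between 4474652 and 11717992 in the aged samples. Values are given as CPM, the counts per region scaled to a common library size with TMM factors, changes as log2 fold changes of aged over young from the quasi-likelihood fit of edgeR over all regions, and adjusted p-values as Benjamini-Hochberg values over all 55680 regions with a threshold of 0.05. On the first principal component of the 500 most variable regions the young samples scored −31.28, −27.63 and −9.90 and the aged samples 17.10, 22.61, 25.70 and 3.38, so that young replicate 3 and aged replicate 4 stood closest to the other age. For main promoters the range over all fits with 1 sample left out is given, with the samples that set its ends, and none of these fits passed the threshold at a main promoter. Of 8 hepatocyte marker genes, 8 had a promoter region, against 1 of 8 Kupffer cell and macrophage genes (Clec4f) and 0 of 9 lymphocyte genes. The summed promoter signal of 5 stellate cell genes ran from 38.1 to 45.5 CPM in young and from 23.9 to 36.1 CPM in aged samples, and that of 5 endothelial genes from 72.0 to 80.4 and from 58.8 to 96.5 CPM. For the 8 hepatocyte genes it ran from 704 to 768 and from 841 to 961 CPM. For 3 cholangiocyte genes it ran from 43.8 to 52.0 and from 39.4 to 56.9 CPM.

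Aged liver had lower accessibility at 3 of the 38 regions (7.89%) and higher accessibility at 0. All 3 lay in or next to Dnmt3a. Over the whole table, 5.74% of regions passed the threshold in either direction, 3.3% lower and 2.44% higher, so the share among the 38 regions was near the background, while in Dnmt3a, singled out after its values were seen, it was 33.3% of 9 regions. By unadjusted p under 0.05, 11 of the 38 regions were lower and 2 higher, against 24.6% of all regions in both directions together. The split of all calls depended on the test and the scaling. In edgeR with TMM 42.5% of them were higher, in limma 48.0% and in DESeq2 58.8%. In edgeR with other scalings, 74.4% were higher with offsets on GC content and 15.6% with total counts. DESeq2 gave 4 lower and 1 higher call among the 38.

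The sequences of the Dnmt3a regions show how its CpG island promoter differed in CpG from regions that were called. Low CpG was not particular to called regions. The observed over expected CpG ratio was 0.15 and 0.17 at the called regions shown, and 0.20, 0.12, 0.24 and 0.20 at regions outside promoters that were not called. Below are, for 4 of its regions, the 200 bp nearest to the middle that overlap no annotated untranslated sequence, on the plus strand, along which Dnmt3a is transcribed, with every CpG in capitals. The window at the CpG island promoter, chr12:3807255-3807454 of GRCm38, held 34 CpG. The one at the internal promoter of Dnmt3a-203 and Dnmt3a-205, chr12:3891862-3892061, held 10. The windows of 2 of the called regions held fewer, namely 2 in intron 3 (chr12:3859855-3860054) and 4 at the start of the transcripts Dnmt3a-209 and Dnmt3a-217 (chr12:3894497-3894696).
Dnmt3a CpG island promoter: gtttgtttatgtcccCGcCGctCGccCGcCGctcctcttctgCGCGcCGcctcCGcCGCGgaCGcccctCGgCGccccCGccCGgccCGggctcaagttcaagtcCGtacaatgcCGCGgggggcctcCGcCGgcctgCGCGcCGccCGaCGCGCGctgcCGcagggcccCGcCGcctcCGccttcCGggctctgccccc
Dnmt3a internal promoter: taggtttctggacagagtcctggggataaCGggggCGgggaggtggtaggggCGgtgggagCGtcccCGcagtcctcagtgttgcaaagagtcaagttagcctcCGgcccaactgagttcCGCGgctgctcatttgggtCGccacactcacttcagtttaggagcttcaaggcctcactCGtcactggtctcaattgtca
Dnmt3a intron region: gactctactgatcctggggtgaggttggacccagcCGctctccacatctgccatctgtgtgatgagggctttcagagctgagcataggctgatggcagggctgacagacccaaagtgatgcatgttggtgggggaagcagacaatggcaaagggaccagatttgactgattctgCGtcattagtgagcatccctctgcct
Dnmt3a-209 and Dnmt3a-217 start: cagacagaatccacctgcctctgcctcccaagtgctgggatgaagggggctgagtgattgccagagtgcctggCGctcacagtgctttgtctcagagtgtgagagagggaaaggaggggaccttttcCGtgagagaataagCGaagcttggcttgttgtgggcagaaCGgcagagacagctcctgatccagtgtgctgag

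The promoter of Mbd3, with the highest log2 fold change of the 38 regions, is shown for comparison. Beside it is sequence before the RefSeq start of Tet1, where no region was found. Both are on the minus strand, along which both genes are transcribed. The RefSeq start of Tet1 lies inside the gene as GENCODE gives it, which spans 62804570 to 62908996. The Mbd3 window is chr10:80399551-80399750 and held 13 CpG. For Tet1 the window is the nearest stretch before its RefSeq start with no untranslated sequence, chr10:62887513-62887712, and held 8.
Mbd3 promoter: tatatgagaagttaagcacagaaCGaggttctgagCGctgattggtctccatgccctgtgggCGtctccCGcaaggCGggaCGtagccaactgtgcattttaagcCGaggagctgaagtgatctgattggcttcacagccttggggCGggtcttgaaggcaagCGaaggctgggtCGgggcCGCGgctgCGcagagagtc
Tet1 upstream sequence: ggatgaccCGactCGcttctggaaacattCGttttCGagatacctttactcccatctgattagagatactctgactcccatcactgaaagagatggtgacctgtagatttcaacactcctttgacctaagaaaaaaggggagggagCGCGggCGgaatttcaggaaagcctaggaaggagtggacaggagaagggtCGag

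Dnmt3a (ENSMUSG00000020661.15, chromosome 12, 3806007 to 3914443, plus strand) and its downstream flank held all 3 regions of the set whose accessibility fell. All 9 of its regions had a log2 fold change below 0, from −0.995 to −0.20 with a median of −0.61, compared with a median of −0.04 over all regions. With offsets fitted on GC content 8 of the 9 were below 0, the CpG island promoter being the exception. The other 29 regions of the set were below 0 in 17 cases, with a median of −0.04 and 0 calls. The counts summed over the 9 regions gave log2 CPM values of 8.37, 8.14 and 8.04 in young and of 7.64, 7.70, 7.76 and 7.98 in aged samples. Each of the 4 aged samples lay below each of the 3 young ones, a difference of −0.42 (exact permutation test, two-sided, p = 0.057, which no split of 3 against 4 samples can undercut, and 0.39 after adjustment over the sums of 9 genes). The test treated all samples as independent, although the 4 aged samples came from 3 animals, so this p is too small. Aged replicate 4 was the highest aged sample in 8 of the 9 regions and young replicate 3 the lowest young sample in 6.

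The lowest value belonged to a region downstream of the gene, between genes, at 3918675 to 3919723. Its accessibility was 15.7, 13.7 and 13.6 CPM in the young samples and 5.97, 8.04, 7.94 and 7.25 CPM in the aged ones. The groups did not overlap. The log2 fold change was −0.995 with a standard error (SE) of 0.19 and an adjusted p of 0.013 by edgeR.

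Next came a region at 3859444 to 3860466, in intron 3 of Dnmt3a-201, where it also overlaps an exon of the antisense transcript Dnmt3aos. ATAC-seq reads carry no strand, so the signal cannot be assigned to either. It fell from 36.1, 34.9 and 23.3 CPM in young to 16.4, 12.4, 17.7 and 21.4 CPM in aged samples, again without overlap, and young replicate 3 and aged replicate 4 came closest to each other. The log2 fold change was −0.89 (SE 0.19, adjusted p = 0.020 by edgeR).

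The third region, at 3894297 to 3894898 in intron 6, covers the start of the transcripts Dnmt3a-209 and Dnmt3a-217. Its values were 22.0, 19.1 and 18.4 CPM in young and 7.20, 12.4, 11.9 and 12.9 CPM in aged samples. Aged replicate 1 was the lowest, and all 4 aged samples lay below the young ones. The log2 fold change was −0.87 (SE 0.20, adjusted p = 0.027 by edgeR), and it did not pass with offsets on mean abundance (−0.85, adjusted p = 0.060).

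Upstream of it in the same intron, the internal promoter of Dnmt3a-203 and Dnmt3a-205 at 3891056 to 3892869 had 38.2, 27.9 and 33.4 CPM in young and 17.4, 21.6, 18.9 and 28.3 CPM in aged samples. Only aged replicate 4 reached the range of the young samples. The log2 fold change of −0.61 (SE 0.17) gave an adjusted p of 0.053 by edgeR and did not pass. It passed in 9 alternatives and did not pass in the other 13. Among those 9 were DESeq2 (adjusted p = 0.046), limma (0.048), offsets on GC content (0.042), total counts (0.023) and the fit without aged replicate 4 (−0.78, adjusted p = 0.013).

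The CpG island promoter of Dnmt3a, at 3806028 to 3808526, covers the starts of Dnmt3a-201 and 5 further transcripts and was the strongest region of the gene. It had 97.7, 79.2 and 74.5 CPM in young and 70.5, 70.4, 71.7 and 79.3 CPM in aged samples, and the groups overlapped. Its log2 fold change was −0.20 (SE 0.12, adjusted p = 0.32 by edgeR). It ran from −0.26 without young replicate 3 to −0.071 without young replicate 1, and was −0.32 without young replicate 3 and aged replicate 4. This value depended on the scaling, at −0.48 (adjusted p = 0.036 by edgeR) when offsets followed mean abundance and 0.014 when they followed GC content.

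The remaining 4 regions of Dnmt3a did not pass the test with TMM. The strongest region outside a promoter, at 3866526 to 3869344 in intron 4 of Dnmt3a-201, had 56.2, 50.1 and 52.3 CPM in young and 38.5, 40.4, 43.9 and 50.9 CPM in aged samples. Aged replicate 4 alone overlapped the young values, and the log2 fold change was −0.28 (SE 0.12, adjusted p = 0.17 by edgeR). It passed with total counts (−0.40, adjusted p = 0.049) and with offsets on mean abundance (−0.49, adjusted p = 0.047). In the other 20 alternatives it stayed below 0 and did not pass. The region at 3833835, over exon 2, had 7.40 to 14.6 CPM in young and 5.27 to 10.1 CPM in aged samples and a log2 fold change of −0.67 (adjusted p = 0.13). The region at 3855847, in intron 3, had −0.34 (adjusted p = 0.33), and the one in exon 23 had −0.20 (adjusted p = 0.32).

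**Figure D1:**
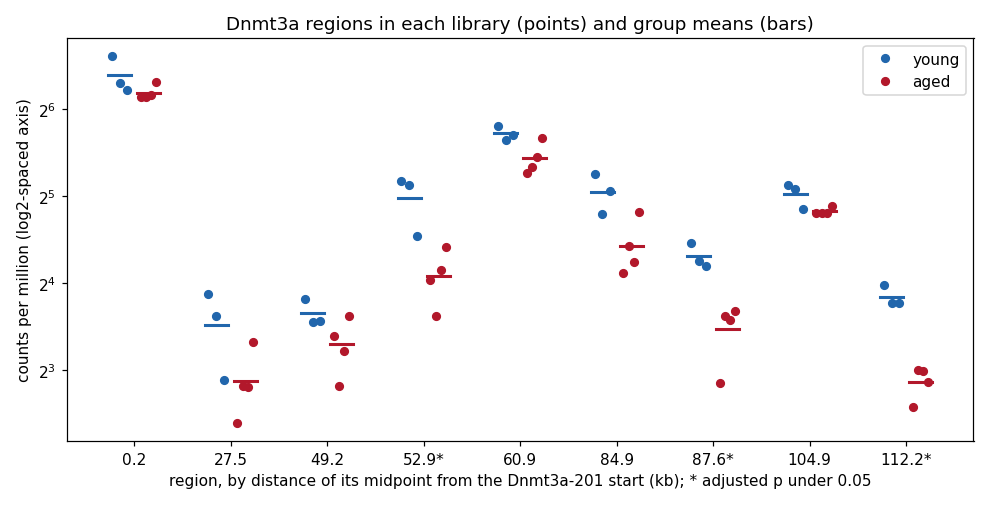
Accessibility of the 9 regions of Dnmt3a in each library, in CPM on a log2-spaced axis, ordered by the distance of the region midpoint from the start of Dnmt3a-201 in kb. Points are libraries, bars are group means and asterisks mark adjusted p under 0.05. At the 3 marked regions the 4 aged points lie below the 3 young points, while the CpG island promoter at the left shows overlapping groups.

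A ratio within each library does not depend on how libraries are scaled to each other. The log2 ratio of the other 8 regions to the CpG island promoter was 1.25, 1.36 and 1.35 in young and 0.87, 0.96, 1.01 and 1.12 in aged samples, which is 1.32 ± 0.062 (SD, n = 3) against 0.99 ± 0.10 (SD, n = 4). For the 3 called regions together it was −0.35 ± 0.11 (SD, n = 3) and −1.06 ± 0.15 (SD, n = 4). In both ratios every aged sample lay below every young one. The ratios were formed after the values of these regions were seen, so both are descriptions with no test. With all 3 Dnmt3a promoter regions set against the other 6 regions, the log2 ratio of promoter to other was −0.19 ± 0.11 (SD, n = 3) in young and −0.10 ± 0.080 in aged samples (SD, n = 4), a difference of 0.09 (exact permutation test, p = 0.57). Over all regions of the table the promoter to other ratio also differed, by 0.17 (exact permutation test, p = 0.11). The region in exon 23 kept its ratio to the promoter, at −1.36 ± 0.13 (SD, n = 3) and −1.36 ± 0.044 (SD, n = 4). Among the 8 single regions the ratio differed most at the downstream region, by −0.79.

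The calls rest on few libraries. Leaving out young replicate 1, young replicate 2 or aged replicate 1 left 0 of the 3 calls in each case, and leaving out aged replicate 3 left 1, while leaving out aged replicate 4 gave 6. Summing aged replicates 1 and 3, as if they were the lobules of 1 animal, left the downstream region (adjusted p = 0.036 by edgeR), with adjusted p of 0.055 and 0.054 at 3859444 and 3894297, and the other 5 pairs gave 3 or 4. The whole table moved in the same way, from 1838 lower and 1360 higher calls to 133 and 55 without young replicate 1 and to 2600 and 1630 without aged replicate 4. In each of these fits all 9 regions of Dnmt3a stayed below 0, with medians from −0.78 to −0.46. Without young replicate 3 and aged replicate 4 together, 6 member regions were lower.

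Neighbouring regions also leaned to lower values. Within 250 kb upstream of Dnmt3a, 6 of 7 regions were below 0 with a median of −0.41, and 2 of them, both in introns of Dtnb, passed the test (−1.48, adjusted p = 0.014; −0.99, adjusted p = 0.020 by edgeR). Within 250 kb downstream, 4 of 5 regions were below 0 with a median of −0.28 and 0 calls. The CpG-rich promoter of Dtnb had −0.11 (adjusted p = 0.67). The stellate cell genes were lower in sum in all aged samples than in any young one. Reln fell most among them, from a mean of 18.7 to 11.7 CPM, and without it the sums of the ages overlapped. Ecm1 reached 14.6 CPM in aged replicate 4, above its highest young value of 13.9, and Des, Pdgfrb and Acta2 had no promoter region. The part of stellate cell genes in the lower Dnmt3a values was not tested.

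**Figure D2:**
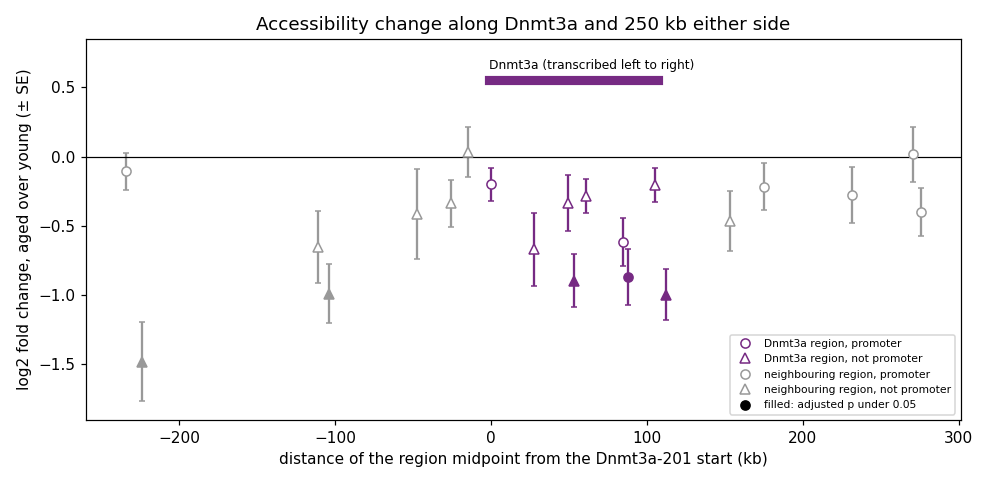
Log2 fold change of aged over young with its standard error for the regions of Dnmt3a and within 250 kb of it, against the distance of the region midpoint from the start of Dnmt3a-201 in kb. Circles are promoter regions, triangles are other regions, and filled symbols passed an adjusted p of 0.05. The 3 filled Dnmt3a symbols lie between −0.995 and −0.87, and 2 filled symbols lie upstream in Dtnb.

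Dnmt1, the maintenance methyltransferase (ENSMUSG00000004099.16, chromosome 9, 20907209 to 20959888, minus strand), had 3 regions. Its own promoter at 20952216 to 20953401 had 30.9, 25.5 and 21.4 CPM in young and 39.6, 26.5, 27.3 and 37.5 CPM in aged samples. Aged replicates 1 and 4 were above all young samples, the other two were not, and the log2 fold change was 0.34 (SE 0.17, adjusted p = 0.23 by edgeR). It ran from 0.24 without aged replicate 1 to 0.49 without young replicate 1, and was 0.18 without young replicate 3 and aged replicate 4. The other regions were the promoter of Eif3g, a translation initiation factor subunit, with −0.04, and a weak region in an exon of S1pr2 with −0.82 (SE 0.38, adjusted p = 0.20), at 1.40 to 4.91 CPM. The S1pr2 region was in the weakest of the 10 groups by mean log2 CPM, whose median was −0.42. RefSeq lists 3 promoters of Dnmt1, and the 300 bp of each hold 2, 12 and 33 CpG.

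Uhrf1, which recruits Dnmt1 (ENSMUSG00000001228.14, chromosome 17, 56303321 to 56323486, plus strand), had 1 promoter region of its own, at 56302800 to 56304605. It had 29.9, 26.5 and 26.8 CPM in young and 23.0, 25.5, 30.1 and 27.6 CPM in aged samples, with overlapping groups and a log2 fold change of −0.07 (SE 0.13, adjusted p = 0.79 by edgeR). It ran from −0.13 without aged replicate 3 to −0.00033 without aged replicate 1, and was −0.12 without young replicate 3 and aged replicate 4. The second region in its window was the promoter of Kdm4b, a histone demethylase gene, with 76.1, 74.9 and 42.3 CPM in young and 102, 72.4, 94.1 and 111 CPM in aged samples (log2 fold change 0.55, SE 0.19, adjusted p = 0.093). The Uhrf1 sum of 0.41 came from the Kdm4b promoter, since with a window of 1000 bp around the gene it was −0.07.

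Dnmt3b, the second de novo enzyme (ENSMUSG00000027478.15, chromosome 2, 153649450 to 153687730, plus strand), had the lowest main promoter level of the set. Its promoter region at 153649214 to 153650299 is shared with the antisense gene Dnmt3bos. It had 14.4, 13.7 and 21.7 CPM in young and 16.5, 12.4, 13.8 and 15.5 CPM in aged samples, and the log2 fold change of −0.15 (SE 0.19, adjusted p = 0.66 by edgeR) turned to 0.072 without young replicate 3, its highest sample, and to 0.037 without aged replicate 4 as well. Without young replicate 2 it was −0.29. A region in intron 2 at 153656509 had 0.47 (SE 0.26, adjusted p = 0.29) and one between genes downstream had −0.25 (SE 0.31, adjusted p = 0.67).

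Among the dioxygenases, Tet1 (ENSMUSG00000047146.17, chromosome 10, 62804570 to 62908996, minus strand) had no region in its 104427 bp or the flanks. This held for 26% of 21938 protein-coding genes, and for 310 of the 2353 genes at least as long as Tet1 (13.2%). The nearest regions were the promoters of Ccar1, 11617 bp away, and Slc25a16, 11015 bp away, with mean levels of 51.0 and 26.2 CPM in young and of 61.8 and 26.9 CPM in aged samples. The RefSeq promoter of Tet1, 250 bp before to 50 bp after its start, holds 17 CpG, more than 68.6% of RefSeq promoters. A region had to be called as a peak in at least 2 libraries to enter the table, so weaker accessibility at Tet1 is not visible in it.

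Tet2 (ENSMUSG00000040943.12, chromosome 3, 133463679 to 133545139, minus strand) had 3 regions. The promoter at 133543606 to 133545269, which also covers the start of Gm42567, had 31.5, 38.9 and 35.8 CPM in young and 48.4, 38.05, 46.9 and 36.9 CPM in aged samples. Only aged replicates 1 and 3 were above the young range, and the log2 fold change was 0.26 (SE 0.13, adjusted p = 0.24 by edgeR). It ran from 0.19 without aged replicate 1 to 0.34 without young replicate 2. Its RefSeq promoter holds 57 CpG, more than 99.8% of RefSeq promoters. The stronger of its intron 1 regions, at 133516096 to 133517862, had values of 9.87 to 13.8 CPM in young and 11.9 to 13.2 CPM in aged samples and a log2 fold change of −0.00 (SE 0.17), and the other intron 1 region had 0.24 (SE 0.25).

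Tet3 (ENSMUSG00000034832.15, chromosome 6, 83362373 to 83459084, minus strand) had as many regions as Dnmt3a, 9. Its main promoter region at 83440816 to 83442089 covers the starts of 3 Tet3 transcripts and of B230319C09Rik and had 51.1, 47.4 and 55.9 CPM in young and 56.1, 51.8, 53.2 and 63.4 CPM in aged samples (log2 fold change 0.13, SE 0.12, adjusted p = 0.51 by edgeR). The value ran from 0.074 without young replicate 2 to 0.21 without young replicate 3. The upstream promoter of Tet3-203 had −0.13 (SE 0.15, adjusted p = 0.63). Most of the 7 intronic regions were weak. The lowest log2 fold change among them, −0.99 (SE 0.42, adjusted p = 0.16 by edgeR), was second only to the Dnmt3a downstream region among the 38, and belonged to a region of 248 bp in intron 5 at 83381717. It had 2.13, 2.00 and 2.80 CPM in young and 0.791, 0.588, 2.33 and 1.15 CPM in aged samples, with aged replicate 3 in the young range. This region was in the weakest of the 10 groups by mean log2 CPM, whose median was −0.42. The strongest, at 83421820 to 83423146, had 17.4 to 26.8 CPM in young and 22.9 to 26.6 CPM in aged samples and a log2 fold change of 0.04, which was −0.10 without young replicate 3. In 2 of the 7, at 83354782 within Bola3 and at 83413022, all aged samples lay below all young ones, with log2 fold changes of −0.43 (adjusted p = 0.18) and −0.73 (adjusted p = 0.13).

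Tdg (ENSMUSG00000034674.18, chromosome 10, 82629828 to 82650799, plus strand) had a promoter region at 82629259 to 82630550 with 32.6, 34.0 and 24.2 CPM in young and 38.1, 31.6, 38.1 and 36.3 CPM in aged samples. Aged replicate 2 fell within the young range and the other aged samples lay above it. The log2 fold change was 0.24 (SE 0.14, adjusted p = 0.31 by edgeR) and ran from 0.12 without young replicate 3 to 0.33 without young replicate 2. The promoter of 1190007I07Rik in its flank had 0.19 (SE 0.12, adjusted p = 0.34).

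Mbd3 (ENSMUSG00000035478.14, chromosome 10, 80392539 to 80399550, minus strand) had the most accessible promoter per kb and the highest log2 fold change of the set. The region at 80398656 to 80400393 had 116, 105 and 60.2 CPM in young and 147, 108, 141 and 158 CPM in aged samples. Young replicate 3 was far below the other young samples, and aged replicate 2 fell between the young values. The region belonged to the strongest of the 10 groups by mean log2 CPM, whose median was 0.28. The log2 fold change of 0.56 (SE 0.19) did not pass in edgeR (adjusted p = 0.093), while DESeq2 gave 0.59 (adjusted p = 0.048) and edgeR with offsets on GC content 0.62 (adjusted p = 0.016). Without young replicate 1 it was 0.74. It was lower without young replicate 3 (0.34, adjusted p = 0.18), without both young replicate 3 and aged replicate 4 (0.26, adjusted p = 0.22) and with offsets on mean abundance (0.22, adjusted p = 0.49), all by edgeR. The promoters of its neighbours Mex3d and Uqcr11 had −0.39 (SE 0.20, adjusted p = 0.25) and −0.04 (SE 0.17, adjusted p = 0.91). The log2 ratio of the Mbd3 promoter to these 2 regions within a library averaged 0.77 ± 0.13 in the young (SD, n = 3) and 1.496 ± 0.29 in the aged samples (SD, n = 4), with no overlap (exact permutation test, two-sided, p = 0.057; 0.21 after adjustment over the ratios of 9 genes). The ratio of Uhrf1, its promoter over that of Kdm4b, gave the same p in the opposite direction, with a difference of −0.66.

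Mbd2 (ENSMUSG00000024513.16, chromosome 18, 70568189 to 70626131, plus strand) had a promoter region with 59.0, 50.5 and 40.6 CPM in young and 61.2, 53.2, 48.8 and 61.2 CPM in aged samples (log2 fold change 0.17, SE 0.14, adjusted p = 0.49 by edgeR). The groups overlapped, and the value ran from 0.058 without young replicate 3 to 0.30 without young replicate 1, and was 0.0071 without young replicate 3 and aged replicate 4. Its intronic region 43087 bp from the start had 5.18, 5.63 and 8.22 CPM in young and 3.87, 4.31, 4.67 and 3.31 CPM in aged samples, without overlap, and a log2 fold change of −0.64 (SE 0.26, adjusted p = 0.14). The 2 remaining regions had 0.04 and −0.48 (SE 0.25 and 0.34).

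**Figure D3:**
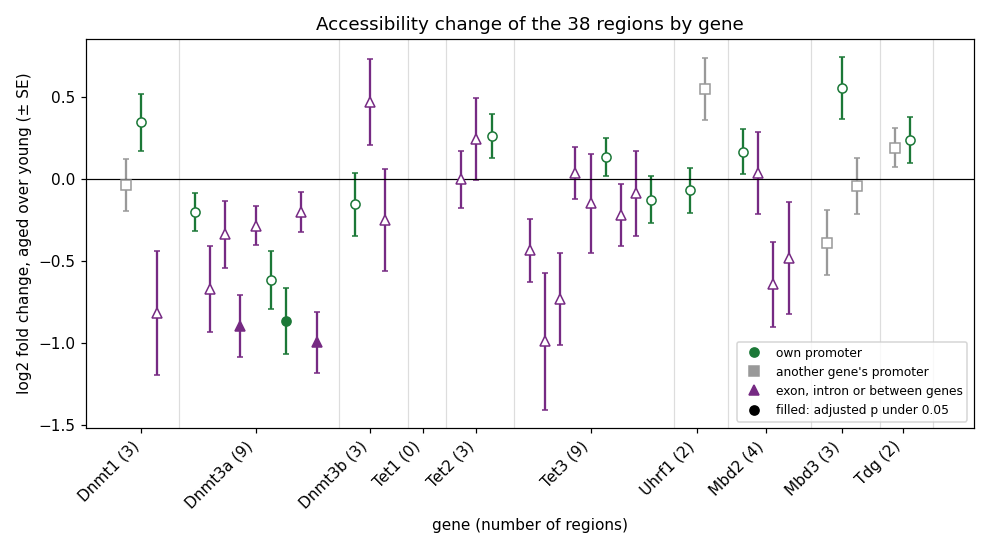
Log2 fold change of aged over young with its standard error for the 38 regions, grouped by gene, with the number of regions in brackets. Green circles are promoters of the gene itself, gray squares promoters of other genes and purple triangles other regions, and filled symbols passed an adjusted p of 0.05. All 9 Dnmt3a regions lie below 0 (8 of 9 when scaled with GC offsets) and hold the 3 filled symbols, and the Mbd3 promoter is the highest point at 0.56.

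Per kb of region, so that regions of different length can be compared, the main promoters ranged from 68.7 CPM at Mbd3 to 14.2 CPM at Dnmt3b as the mean of all 7 samples. Tet3 (42.5), Mbd2 (39.6), Dnmt3a (31.1), Tdg (26.0), Dnmt1 (25.1), Tet2 (23.7) and Uhrf1 (14.98) followed Mbd3 in that order. Mbd2 exceeded Dnmt3a, and Tet2 exceeded Uhrf1, in 7 of 7 libraries. Neighbours in the order that did not separate were Tet3 and Mbd2 (same order in 4 of 7), Dnmt3a and Tdg (5), Tdg and Dnmt1 (4), Dnmt1 and Tet2 (3), and Uhrf1 and Dnmt3b (5). Mbd3 exceeded Tet3 in 6 of 7. Among all promoter regions, Mbd3 stood at percentile 97.5 and Dnmt3b at 33.4.

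**Figure D4:**
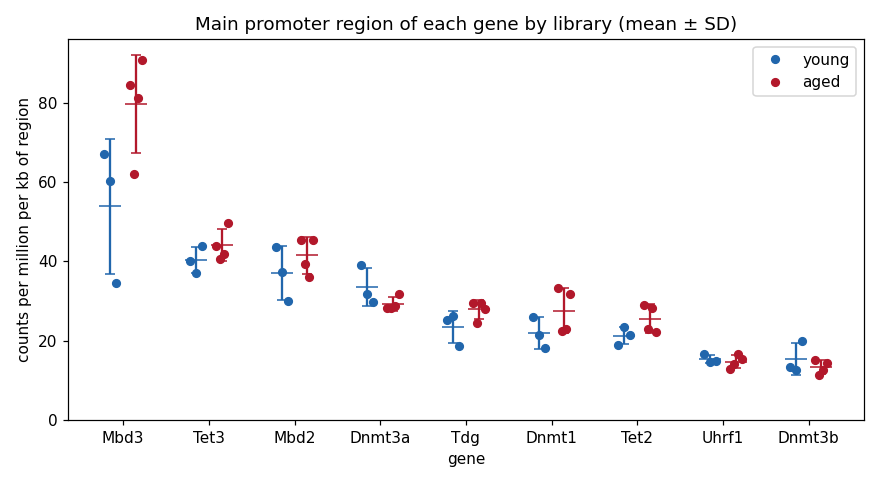
Main promoter region of the 9 genes in each library, in CPM per kb of region, with group means and standard deviations, ordered by the mean over all 7 libraries. Mbd3 is highest, with aged points up to 90.9 and the lowest young point at 34.6, and the ages overlap for every gene.

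By position, the 12 promoter regions of the genes themselves had a median of 0.03 and held 1 lower and 0 higher calls, beside a median of 0.09, 2.06% lower and 4.48% higher calls over all 15422 promoter regions. The 21 regions in no promoter had a median of −0.28, with 17 below 0, beside a median of −0.09 and 59% below 0 over all regions of that kind. In 6 of the 38 regions every aged sample lay below every young one, and in 0 every aged sample lay above, compared with 11.6% and 10.2% of all regions. None of the 38 regions aligned to another place in the genome over at least 80% of its length at 95% identity or more.

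CpG content, which the choice of genes did not use, varied along with these values. An observed over expected CpG ratio of at least 0.6 was found in 11 of the 38 regions (28.9%) and in 17.3% of all regions. These 11 were promoters, 8 of them of the genes themselves, whereas the highest ratio among the 21 regions outside promoters was 0.40. Among the 27 CpG-poor regions the median was −0.25, with 20 below 0 and 3 lower calls, beside −0.07 and 3.51% lower calls among all CpG-poor regions. The 11 CpG-rich regions had −0.04 with 0 calls, beside 0.10, 2.32% lower and 3.76% higher calls among all CpG-rich regions. Spearman's rho between the CpG ratio and the log2 fold change was 0.52 over the 38 regions, 0.44 without Dnmt3a and 0.14 over all 55680. Regions share libraries, and CpG-rich regions are also deeper (rho 0.35 with mean log2 CPM over all regions), so these are descriptions.

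**Figure D5:**
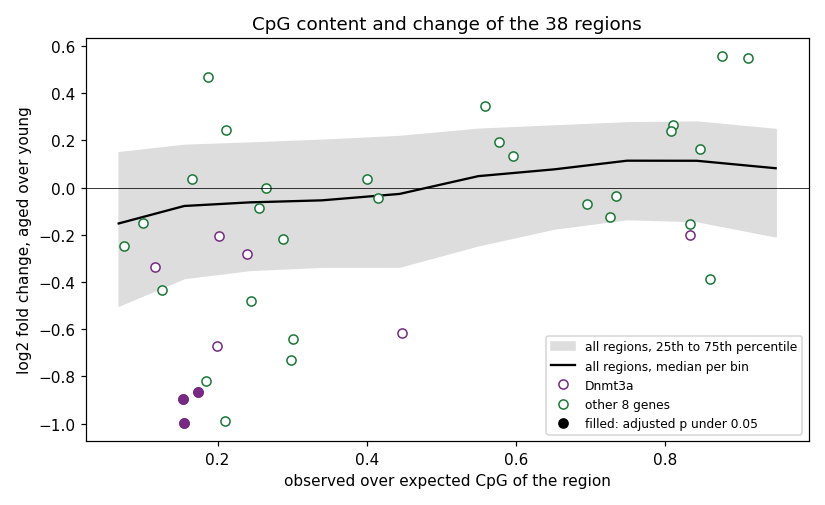
Log2 fold change of aged over young against the observed over expected CpG ratio of each of the 38 regions, with the median and the 25th to 75th percentiles of all regions in bins of the ratio. The 3 filled Dnmt3a points lie at the CpG-poor left side near −0.995 to −0.87, below the gray band, and both points above 0.50 are promoters.

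Short sequence motifs were searched on both strands in the central 300 bp of each region. The GC box of SP and KLF factors (GGGCGG) was present in 14 of the 38 regions (36.8%), 18.8% of all regions and 48.9% of promoter regions. The CCAAT box of NF-Y (CCAAT) was in 11 of the 38 (28.9%) and 32.1% of all regions, including the Mbd3, Dnmt1 and Tdg promoters, and in 0 of the 9 Dnmt3a regions. The E-box CACGTG was in 6 (15.8% against 5.83%), the ETS core CCGGAA in 2 (5.26% against 8.48%) and the E2F form TTTNNCGC in 4 (10.5% against 3.51%). Of motifs of liver factors, the FOXA form TGTTTAC was in 3 (7.89% against 5.93%), the C/EBP form TTGCNNAA in 4 (10.5% against 14.6%) and the HNF4A form CAAAGTCCA in 0 (1.41% of all regions). The NRF1 core CGCATGCG was in 1, the Dnmt1 promoter (0.514% of all regions). None of these letters were found in the central windows of the 3 called Dnmt3a regions.

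Genes that work with the set were read from their promoter regions. Of 70 such genes, 67 had one, 2 were higher and 0 lower. Idh1, whose product makes the 2-oxoglutarate that TET enzymes use, had 117, 116 and 113 CPM in young and 157, 149, 170 and 166 CPM in aged samples, with a log2 fold change of 0.47 (SE 0.10, adjusted p = 0.022 by edgeR). Pcna, the replication clamp that binds Dnmt1, had 55.4, 55.8 and 47.0 CPM in young and 69.8, 66.9, 72.1 and 73.9 CPM in aged samples (0.42, SE 0.11, adjusted p = 0.040). Both groups of values were free of overlap. These 2 calls made up 2 of 67 promoters, beside 4.48% of all promoter regions, and 0 remained without young replicate 1, young replicate 2, aged replicate 1 or aged replicate 3, each left out alone.

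No further promoter of the lists passed. Of 9 readers of methylated DNA, 8 were above 0, with a median of 0.19 and the lowest value at Zbtb4, −0.15. The 6 partners of the methyltransferases had a median of −0.01 (Zfp57 −0.77, Trim28 0.32), and Dnmt3l and Dppa3, which are best known from germ cells and early embryos, had no promoter region. Of 10 CXXC proteins and TET partners, 9 were above 0 (median 0.21), with Cxxc4 lowest at −0.05 and Idh1 highest, and Wt1 had no region. The 15 genes of base excision repair and deamination had a median of 0.10, with the highest value at Gadd45g, 0.42. The 11 NuRD genes had a median of 0.24, from −0.37 at Mta3 to 0.52 at Gatad2a (adjusted p = 0.063), and 16 cell cycle genes a median of 0.21, from −0.19 at Mcm6 to 0.46 at Mcm3. The medians compare with 0.09 over all promoter regions. Among all regions, the 2 strongest of the 10 groups by mean log2 CPM had medians of 0.16 and 0.28, and the lists were not matched for strength. Among marker genes 1 of 22 promoters passed, that of the hepatocyte gene Apoa1 (0.53, adjusted p = 0.033 by edgeR), and it no longer passed without young replicate 1, 2 or 3 or without aged replicate 1 or 3.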

How the data were processed

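The authors deposited raw counts per consensus region, without normalization, for each of the 7 ATAC-seq libraries. According to the study's methods and the submitters' processing notes, the authors trimmed reads with cutadapt 1.13, aligned them to GRCm38 with Bowtie2 2.4.1, removed duplicates and mitochondrial reads, called peaks per library with MACS2 2.2.7, required a peak in 2 or more libraries for a region and counted with featureCounts. All count columns were mapped to samples by name. Totals per library are given in the text, and p-values measure the spread between samples, 2 of which share an animal.

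Regions were annotated with GENCODE M21 (promoter: TSS ± 200 bp). Counts were tested in edgeR 4.0.16 (TMM, quasi-likelihood, no filter, age as the only factor). The same fit was also run on simulated data, whose outcome is not given here. Gene sums and ratios were log2 values (prior count 2 for sums) compared by exact permutation tests. These tests treated samples as independent, also those that share an animal. Alternatives were DESeq2 1.42.0, limma 3.58.1, other scalings and filters, summed pairs of aged samples and samples left out. Sequences came from GRCm38 and RefSeq (9 of the 10 genes had a RefSeq promoter in the table used), and copies were searched with minimap2 2.31.

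The genes and lists were chosen with earlier results of these data known. Named are all 10 genes with their main promoter (the one of highest mean log2 CPM) and strongest other region, the 5 regions with the smallest p, and of each companion list the called genes and both extremes. Extremes of 2 lists and the sequence of 1 called region are not reported here.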

Additional observations from a re-analysis of the deposited data

Results flagged for a closer look

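In the 4 aged samples, 59 values (38 regions, gene sums and ratios) were searched for 1 sample that stood apart by Dixon's ratio, the gap to the nearest sample over the range, against its critical value for 4 samples. A total of 8 passed. The critical value lets about 1 in 20 pass by chance when samples and values are independent. Here values share libraries and regions, and some aged samples share an animal, so the 8 cannot be set against that rate. Aged replicate 4 was high at the CpG island promoter of Dnmt3a (ratio 0.851, log2 CPM 6.31 against 6.14 to 6.17), in its exon 23 region (0.930, 4.89 against 4.81 to 4.82) and in the intron 3 region of Tet3 at 83421820 (0.859, 4.74 against 4.53 to 4.56). Aged replicate 1 was low at the Dnmt3a region at 3894297 (0.867, 2.89 against 3.60 to 3.71) and high at the Tet2 region at 133516096 (0.849, 3.74 against 3.60 to 3.62). Aged replicate 2 stood apart in the sum of Mbd3 (0.850, 7.29 against 7.60 to 7.65), in the promoter to other log2 ratio of Dnmt3a (0.850, 0.02 against −0.15 to −0.13) and in that ratio over all regions (0.912, 0.28 against 0.42 to 0.43).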

How the results depend on the processing

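The number of member regions that were lower (3) was 5 with total counts or a 50 kb window, 1 with aged replicates 1 and 3 summed, 0 at a threshold of 0.01 and 0 without Dnmt3a, and 6 without young replicate 3 and aged replicate 4, a setting chosen like the one without Dnmt3a after seeing the data. Leaving out 1 sample gave 0 to 6. The number higher (0) was 1 in DESeq2, 3 with GC offsets, 2 at a threshold of 0.1 and 3 with 50 kb. Over all 55680 regions, lower calls went from 1838 to 2931 with total counts and 3295 without young replicate 3 and aged replicate 4. Higher calls went from 1360 to 2760 in DESeq2 and 5650 with GC offsets. Total counts moved the median of all regions from −0.04 to −0.15. Companion promoters lower (0) became 1 with total counts, limma and aged 1 and 4 or 2 and 4 summed. Companion promoters higher (2) became 6 in DESeq2, 1 with total counts, 0 with abundance offsets, 23 with GC offsets, 5 in limma, 0 with at least 10 counts, 0, 1 or 6 with pairs of aged samples summed, and 0 to 5 with 1 sample left out. Higher calls over all regions (1360) moved alike, to 2760 in DESeq2, 543 with total counts, 269 with abundance offsets, 5650 with GC offsets and 2197 in limma. Marker promoters lower (0) became 1 with total counts or aged 1 and 4 summed. Marker promoters higher (1) became 2 in DESeq2, 0 with abundance offsets, 3 with GC offsets, 0 with at least 10 counts, 0 with 2 pairs summed, and 0 to 2 with 1 sample left out. The gene sum of Dnmt1 was 0.33 and that of Uhrf1 was −0.066 with 1000 bp windows, and the Dnmt1 promoter ratio was 1.19 without promoters of other genes. Same-numbered samples of both ages correlated at −0.12, 0.06 and 0.03, so the numbers do not pair them. With the replicate block, 4 member regions were lower, 1 companion promoter was higher and 1 marker promoter lower.

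Directions turned as follows. The Dnmt3a CpG island promoter turned to 0.014 with GC offsets. The Dnmt3b promoter turned to 0.072 without young replicate 3 (−0.29 to 0.072 over all samples left out singly) and to 0.037 without aged replicate 4 as well. With abundance offsets the promoters of Tet3 and Mbd2 turned to −0.098 and −0.058. The Tet2 region at 133516096 turned to 0.026 in DESeq2, 0.040 with abundance and 0.064 with GC offsets, −0.10 to 0.10 with 1 sample left out, 0.0071 and 0.0057 with aged 2 and 3 or 3 and 4 summed and 0.017 with the replicate block. The Tet3 region at 83421820 turned to −0.082 with total counts, −0.050 with abundance offsets, −0.0059 with at least 10 counts, −0.10 to 0.15 with 1 sample left out, −0.17 without both young replicate 3 and aged replicate 4 and −0.0097 with the replicate block. The Mbd2 region at 70573794 turned to −0.083 with total counts, −0.0031 with at least 10 counts, −0.11 to 0.26 with 1 sample left out and −0.00061 with aged 2 and 3 summed. The cause was not tested. Among the values of single regions under an alternative, 377 kept direction and call, 14 lost the call and 14 gained it. Among summary values and counts, 331 stayed within the limits set (1.5 times for a count) and 56 did not. The shallowest library, with 4474652 counts, limits the weak regions, whose counts went down to 3.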
